A study of Homo sapiens with 4 samples.

Results

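The promoters of control HEK293T cells were described from 2 ATAC-seq libraries of 1 group, without comparison to any other group. HEK293T cells are a widely used line of human embryonic kidney origin into which the large T antigen of SV40 was introduced. The series holds 4 libraries, and the 2 used here came from cells treated with lipofectamine alone, while the remaining 2 received MORC2 and were not used. All of these cells were wild type for MORC2, an ATPase of the MORC family known for chromatin compaction and gene silencing. The control cells were 1 line, and the sources do not say whether the lipofectamine carried an empty plasmid. The members were chosen by sample label and by chromosome, not by their values: of 28775 promoters in the count table, 37 mitochondrial ones were left out and 28738 nuclear promoters were described.

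In ATAC-seq, the Tn5 transposase inserts sequencing adapters into DNA that is not wrapped around nucleosomes, so that a promoter cleared of nucleosomes yields many fragments and a promoter packed in nucleosomes yields few. Promoters of constitutively used genes are usually open in every cell type, and most of them lie in CpG islands, stretches where CpG dinucleotides have escaped loss through methylation. Promoters of genes for taste, smell, skin or blood cells are usually closed outside those tissues. Openness shows that the DNA was accessible and is not a measure of transcription.

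The count of a promoter was the number of fragments whose midpoint fell in a 2 kb window around the gene start. Replicate 1 held 4928862 nuclear promoter counts and replicate 2 held 3675088. Mitochondrial promoters took 51.9% and 55.6% of all promoter counts. Counts were expressed as counts per 1000000 nuclear promoter counts (CPM), so that 3 counts, taken as the detection floor, corresponded to 0.609 CPM in replicate 1 and 0.816 CPM in replicate 2. The intervals and floors cover counting error only. Errors are given as the SD over 2 libraries (n = 2), and nothing in the labels says whether these were separate cultures. Counts were not divided by the number of DNA copies of a locus, so that accessibility per copy and copy number cannot be told apart.

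Promoters are shown because they span the range described below, from the most open windows through the middle of the ranking to windows with no counts. Each sequence was taken from the RefSeq promoter table (GRCh38.p14), which holds 250 bases before and 50 bases after a gene start, and each is read along the strand of its gene with CpG dinucleotides in capitals. TRIM41 (chr5:181223031-181223330, plus strand), CEP170 (chr1:243255232-243255531, minus strand) and SDCCAG8 (chr1:243255791-243256090, plus strand) were among the 10 most open promoters, and the last of these face away from each other. GAPDH (chr12:6535014-6535313, plus strand) was the most open of the reference housekeeping genes, and COMP (chr19:18791256-18791555, minus strand) lay at the middle of the ranking. OR5B21 (chr11:58508056-58508355, minus strand) and IFNA7 (chr9:21202156-21202455, minus strand) were the middle members of the olfactory receptors and of the type I interferons. NSF (chr17:46590419-46590718, plus strand) is CpG-rich and had 0 counts.
TRIM41: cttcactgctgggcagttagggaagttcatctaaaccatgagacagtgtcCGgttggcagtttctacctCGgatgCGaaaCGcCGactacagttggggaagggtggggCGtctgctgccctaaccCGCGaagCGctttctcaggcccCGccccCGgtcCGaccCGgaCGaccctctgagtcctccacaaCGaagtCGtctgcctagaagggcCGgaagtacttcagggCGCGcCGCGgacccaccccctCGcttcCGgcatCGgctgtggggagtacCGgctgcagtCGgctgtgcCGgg
CEP170: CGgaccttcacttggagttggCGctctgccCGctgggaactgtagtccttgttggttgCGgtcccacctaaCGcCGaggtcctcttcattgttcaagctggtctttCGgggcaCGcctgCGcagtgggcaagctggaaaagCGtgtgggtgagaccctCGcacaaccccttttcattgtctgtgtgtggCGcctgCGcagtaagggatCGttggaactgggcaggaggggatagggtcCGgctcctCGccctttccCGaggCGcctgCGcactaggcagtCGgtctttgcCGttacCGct
SDCCAG8: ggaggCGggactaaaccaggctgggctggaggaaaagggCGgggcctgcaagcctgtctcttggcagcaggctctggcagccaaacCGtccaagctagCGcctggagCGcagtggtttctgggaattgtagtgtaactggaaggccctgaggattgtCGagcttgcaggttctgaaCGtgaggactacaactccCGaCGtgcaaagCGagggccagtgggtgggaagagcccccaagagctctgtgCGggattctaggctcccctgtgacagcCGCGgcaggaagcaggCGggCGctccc
GAPDH: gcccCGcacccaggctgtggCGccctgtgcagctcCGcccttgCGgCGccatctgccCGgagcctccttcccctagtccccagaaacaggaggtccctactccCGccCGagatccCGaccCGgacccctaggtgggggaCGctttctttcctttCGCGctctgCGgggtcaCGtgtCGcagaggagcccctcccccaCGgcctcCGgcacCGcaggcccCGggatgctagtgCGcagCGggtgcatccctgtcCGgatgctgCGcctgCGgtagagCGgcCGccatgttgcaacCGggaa
COMP: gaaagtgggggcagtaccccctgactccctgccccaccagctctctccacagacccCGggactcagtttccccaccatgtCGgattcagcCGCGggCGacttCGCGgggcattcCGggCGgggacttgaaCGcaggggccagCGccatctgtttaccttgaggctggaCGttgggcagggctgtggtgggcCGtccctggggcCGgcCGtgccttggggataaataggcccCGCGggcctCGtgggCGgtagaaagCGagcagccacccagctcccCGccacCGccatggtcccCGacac
OR5B21: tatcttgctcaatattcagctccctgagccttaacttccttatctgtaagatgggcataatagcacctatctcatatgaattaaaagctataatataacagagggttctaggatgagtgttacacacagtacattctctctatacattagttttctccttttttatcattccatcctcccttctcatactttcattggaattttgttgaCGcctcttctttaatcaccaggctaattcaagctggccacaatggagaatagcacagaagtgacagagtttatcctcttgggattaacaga
IFNA7: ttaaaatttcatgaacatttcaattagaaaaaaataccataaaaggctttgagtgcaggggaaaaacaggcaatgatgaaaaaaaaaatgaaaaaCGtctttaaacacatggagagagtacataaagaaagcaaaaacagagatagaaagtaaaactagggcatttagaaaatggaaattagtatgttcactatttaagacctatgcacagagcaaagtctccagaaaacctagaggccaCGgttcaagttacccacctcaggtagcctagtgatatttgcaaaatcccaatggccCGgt
NSF: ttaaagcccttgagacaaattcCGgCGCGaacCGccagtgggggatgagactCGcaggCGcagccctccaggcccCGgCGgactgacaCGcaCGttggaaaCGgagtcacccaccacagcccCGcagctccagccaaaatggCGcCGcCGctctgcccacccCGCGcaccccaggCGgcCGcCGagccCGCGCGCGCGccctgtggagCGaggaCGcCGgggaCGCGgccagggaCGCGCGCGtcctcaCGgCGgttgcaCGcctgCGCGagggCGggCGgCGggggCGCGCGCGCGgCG

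The number of CpG dinucleotides in these 300 bases was 27 for TRIM41, 22 for CEP170, 15 for SDCCAG8, 28 for GAPDH and 23 for COMP. It was 1 for OR5B21 and 3 for IFNA7. The sequence of NSF held 48, the most of the printed set, beside a window without a count. Fragments with a mapping quality under 30 had been discarded, and the part of that filter in the NSF window was not tested. The deposited counts were made on the T2T-CHM13 assembly, and the sources do not say which start of a gene with several starts was counted, so the printed sequence and the counted window may differ. The printed promoters had a single entry in the RefSeq table.

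The nuclear promoters fell into 2 groups, a closed and an open mode, in both libraries. The density of log2(CPM + 0.5) had modes at 3.42 and 58.4 CPM with its lowest point between them at 14.7 CPM. Below that point lay 13306 promoters (46.3%) and above it 15432 (53.7%). The lower mode lay at 3.67 CPM in replicate 1 and 3.34 CPM in replicate 2, and the upper mode at 58.4 and 58.0 CPM. Among 19307 protein-coding promoters, 68.2% lay above the low point of their own density.

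**Figure D1:**
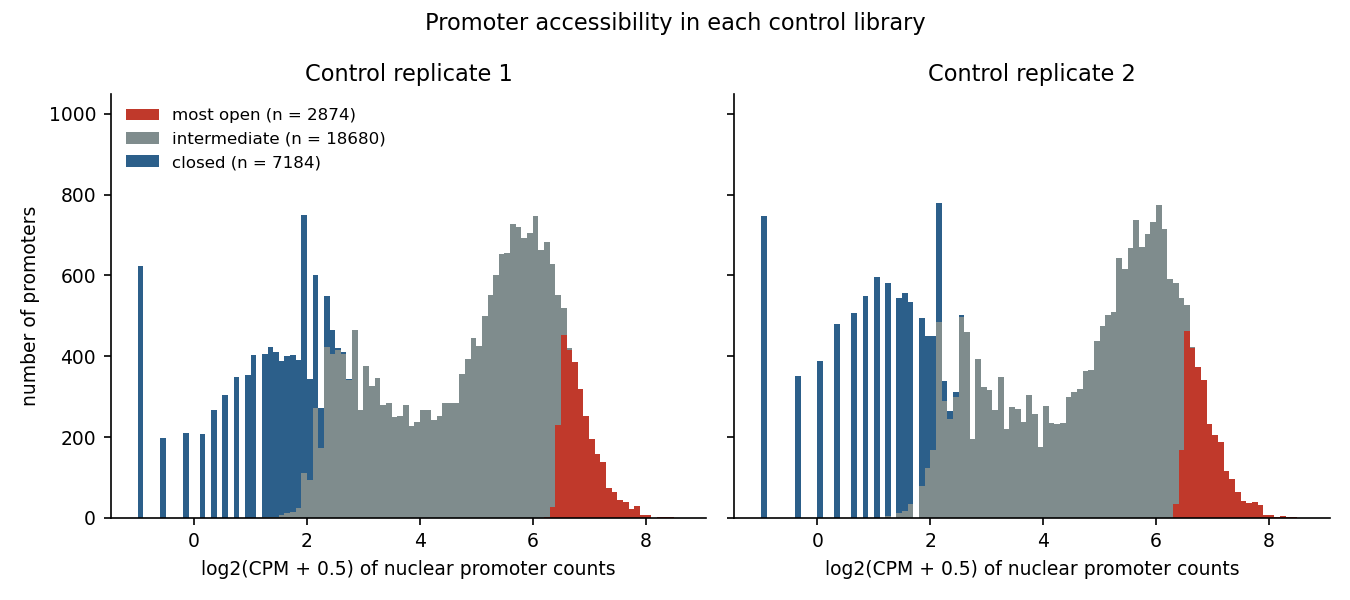
Number of promoters (y axis) by log2(CPM + 0.5) of nuclear promoter counts (x axis) in control replicate 1 and control replicate 2, stacked and coloured by the class set from the mean of both libraries. Both libraries show a low and a high peak, and the gaps at the left end are single whole counts.

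Classes were cut from the ranking of the mean CPM. The most open class took the upper 10.0% of promoters (2874), the closed class the lower 25.0% (7184), and the intermediate class the other 18680. The most open promoters ranged from 87.9 to 350.1 CPM with a median of 109.6 CPM and held 34.4% of all nuclear promoter counts. The intermediate promoters had a median of 31.5 CPM and held 64.2% of the counts. The closed promoters had a median of 1.97 CPM, reached at most 3.80 CPM and held 1.39% of the counts. At the upper edge, HK2 lay just inside the most open class at 87.9 CPM and CSRP2 just outside at 87.8 CPM. At the lower edge, LINC01743 and LOC112268173 both lay at 3.80 CPM, on either side of the closed class.

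The most open promoter was that of TLE4, a transcriptional corepressor of the Groucho family, with 1714 counts in replicate 1 and 1295 in replicate 2, or 347.7 and 352.4 CPM. TEDC1, which takes part in centriole assembly, followed with 340.4 and 335.8 CPM. HCFC1, the host cell factor that recruits chromatin modifiers to promoters, reached 338.6 and 319.2 CPM, and TMEM187, its neighbour on chromosome X, reached 302.9 and 286.3 CPM. TLE4 was the highest of these in both libraries and TMEM187 the lowest, whereas TEDC1 and HCFC1 differed in replicate 1 by less than HCFC1 differed between libraries. Whether the windows of HCFC1 and TMEM187 share fragments was not tested, so they may not be independent observations.

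TRIM41, a RING-type ubiquitin ligase, had 335.6 CPM in replicate 1 and 295.0 CPM in replicate 2. CEP170, a centrosomal protein gene, had 327.9 and 299.6 CPM, and SDCCAG8, needed for centrosomes and cilia, had 323.8 and 295.8 CPM. SETD5, a SET domain protein gene, had 300.9 and 309.7 CPM, and the noncoding THUMPD3-AS1 had 300.5 and 308.8 CPM. The starts of CEP170 and SDCCAG8 lie 760 bp apart and those of SETD5 and THUMPD3-AS1 992 bp apart, so each pair was counted in windows that largely cover the same fragments and is not 2 independent observations. PCDH9, a protocadherin gene, ended the list of 10 with 268.8 and 279.2 CPM.

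Further down the 40 most open promoters came JUN (237.1 ± 1.61 CPM), a subunit of the AP-1 transcription factor, GADD45A (236.7 ± 28.1 CPM), a stress-response gene, and INSIG1 (238.3 ± 3.58 CPM), a sensor of sterols. PTMA, which encodes prothymosin alpha, had 232.5 ± 14.1 CPM, and MIR17HG, the host of the miR-17-92 microRNA cluster, had 234.2 ± 13.7 CPM. Of these 40 promoters, 15 lay on chromosome 1, which held 2860 of all 28738 nuclear promoters, and the next chromosome, 3, held 4. Several were pairs in shared windows, such as INSIG1 and INSIG1-DT with starts 220 bp apart, CDCA3 and USP5 at 864 bp, and G3BP1 and LOC100652758 at 222 bp.

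At the median of all nuclear promoters (20.0 CPM) lay COMP, a cartilage matrix gene, with 91 and 79 counts (18.5 and 21.5 CPM). PAX1, a developmental transcription factor of the sclerotome, and DMAP1, a subunit of the NuA4 complex, each had 99 and 73 counts (20.1 and 19.9 CPM). LGI2 had 20.9 and 19.0 CPM, and CCDC116 had 16.8 and 23.1 CPM. Promoters of a tissue-restricted gene and of a chromatin subunit thus stood side by side at the middle.

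At the closed end, 545 promoters had 0 counts in both libraries. The lowest value above 0, 1 count in replicate 1 and 0 in replicate 2, lies below the detection floor and was shared by 32 protein-coding promoters, of which MAGEA3, PLGLB2, SMN1, SSX4 and TPTE are the first 5 by identifier. These 5 genes have near-identical copies, and fragments with a mapping quality under 30 had been discarded, so their low counts are uncertain as a measure of accessibility. The MORC2 promoter itself was intermediate, with 257 and 162 counts, or 52.1 and 44.1 CPM (48.1 ± 5.70 CPM), above 69.5% of nuclear promoters.

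The libraries ranked promoters alike. Across 28738 promoters, log2(CPM + 0.5) gave a Pearson r of 0.986 and the CPM a Spearman rho of 0.988, a description over promoters that share libraries and depth. Each promoter was put in a class separately in each library, and 26528 (92.3%) fell in the same class. Of 2874 promoters most open in a library, 2597 were most open in both, and of 7184 closed ones 6356 were closed in both. The most open class of a library shared 0 promoters with the closed class of the other library. Of the top 100 promoters, 87 were shared.

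**Figure D2:**
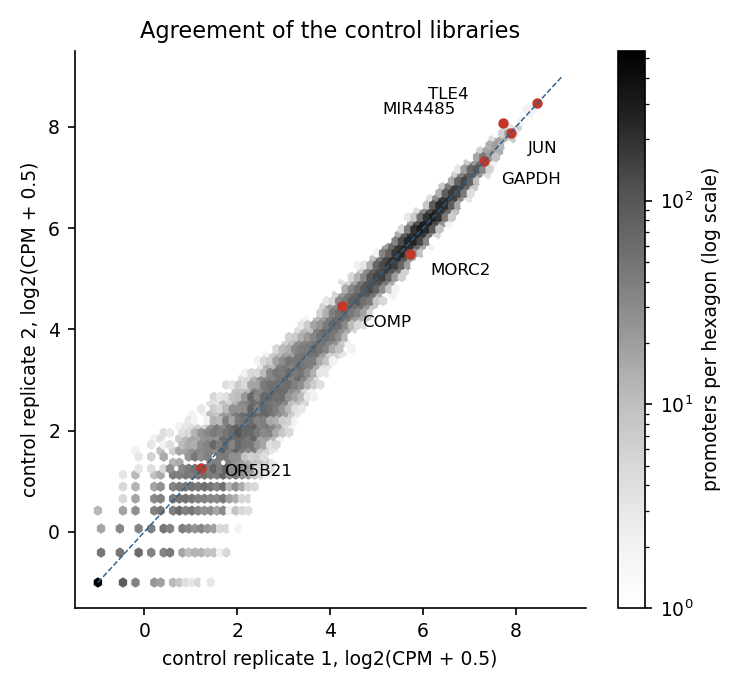
Log2(CPM + 0.5) of each nuclear promoter in control replicate 1 (x axis) and control replicate 2 (y axis), with the number of promoters per hexagon in grey on a log scale and the line of equality dashed. The cloud narrows from the closed promoters, where OR5B21 lies, to the most open ones, where TLE4 and JUN lie on the line, and MIR4485 lies above it.

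The spread between libraries depended on depth. For the 16239 promoters whose mean count reached 50, the SD of the log2 ratio was 0.175. The SD fell from 0.65 at mean counts of 5 to 10 to 0.12 at 500 or more. The estimate for counting alone was 0.84 and 0.08. It exceeded the observed SD at the low counts, so it cannot measure excess spread there. The chi-square per degree of freedom between the libraries was 1.83 for the most open promoters, 1.22 for the intermediate and 1.08 for the closed, so that closed promoters differed by little more than sampling noise. The common biological coefficient of variation by edgeR was 4.11%. None of the 2874 most open promoters differed by 2-fold or more between libraries, against 91 of the intermediate and 746 of the closed promoters with counts, the latter from few counts.

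A two-sided exact binomial test of each promoter, with Benjamini-Hochberg adjustment over 26939 promoters with at least 10 counts, called 1 promoter (0.00371%), and 2020 had an unadjusted p under 0.05. This test compares 2 libraries, not conditions. The promoter called was that of MIR4485, with 1044 and 991 counts, or 211.8 and 269.7 CPM (log2 ratio of replicate 2 over replicate 1 0.35, exact binomial test, adjusted p = 0.00153). The sequence of this microRNA lies in a nuclear copy of mitochondrial DNA, and the mitochondrial share of counts was likewise higher in replicate 2, at 55.6% against 51.9%. Whether mitochondrial fragments were counted there was not tested. With TMM scaling, 15 promoters were called, 14 of them higher in replicate 2.

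Among promoters whose mean count reached 50, the largest ratios were for RNVU1-4, a variant U1 small nuclear RNA gene, with 19.5 and 9.52 CPM, and for TMEM100 with 21.9 and 11.4 CPM. RAB33A had 15.2 and 7.89 CPM, LFNG, a Notch-modifying glycosyltransferase gene, had 16.6 and 8.71 CPM, and HR, a corepressor gene of the hair follicle, had 10.3 and 19.9 CPM. Their log2 ratios of replicate 2 over replicate 1 ran from -0.99 to 0.91, and none passed the exact binomial test (lowest adjusted p = 0.162). All 5 were promoters of 11.6 to 16.7 CPM.

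Gene types differed in openness. Protein-coding promoters had a median of 35.6 CPM (35.7 and 35.6 in the libraries), with 12.7% most open and 15.3% closed. Promoters of long noncoding RNAs had a median of 6.04 CPM, with 6.19% most open and 35.8% closed. The 1886 microRNA promoters had a median of 2.81 CPM with 60.0% closed, and the 534 small nucleolar RNA promoters a median of 2.83 CPM with 58.2% closed. Transcribed pseudogenes had a median of 3.07 CPM. Of 31 ribosomal RNA genes, which exist in many identical copies, 22 had 0 counts. Protein-coding genes made up 85.2% of the most open class and 41.1% of the closed class.

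Gene lists were described by the class of their members against the background of all nuclear promoters, 10.0% most open and 25.0% closed. Many lists hold protein-coding genes, whose promoters were 12.7% most open and 15.3% closed with a median of 35.6 CPM. Of 44 lists with at least 3 measured members, 19 had a median above that of all nuclear promoters. Among these 19, the lists of kidney development, ZNF, solute carrier, developmental, histone and neuronal genes lay below the protein-coding median. Reference housekeeping and glycolytic genes had the highest medians, and type I interferons, beta-defensins and bitter taste receptors the lowest.

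**Figure D3:**
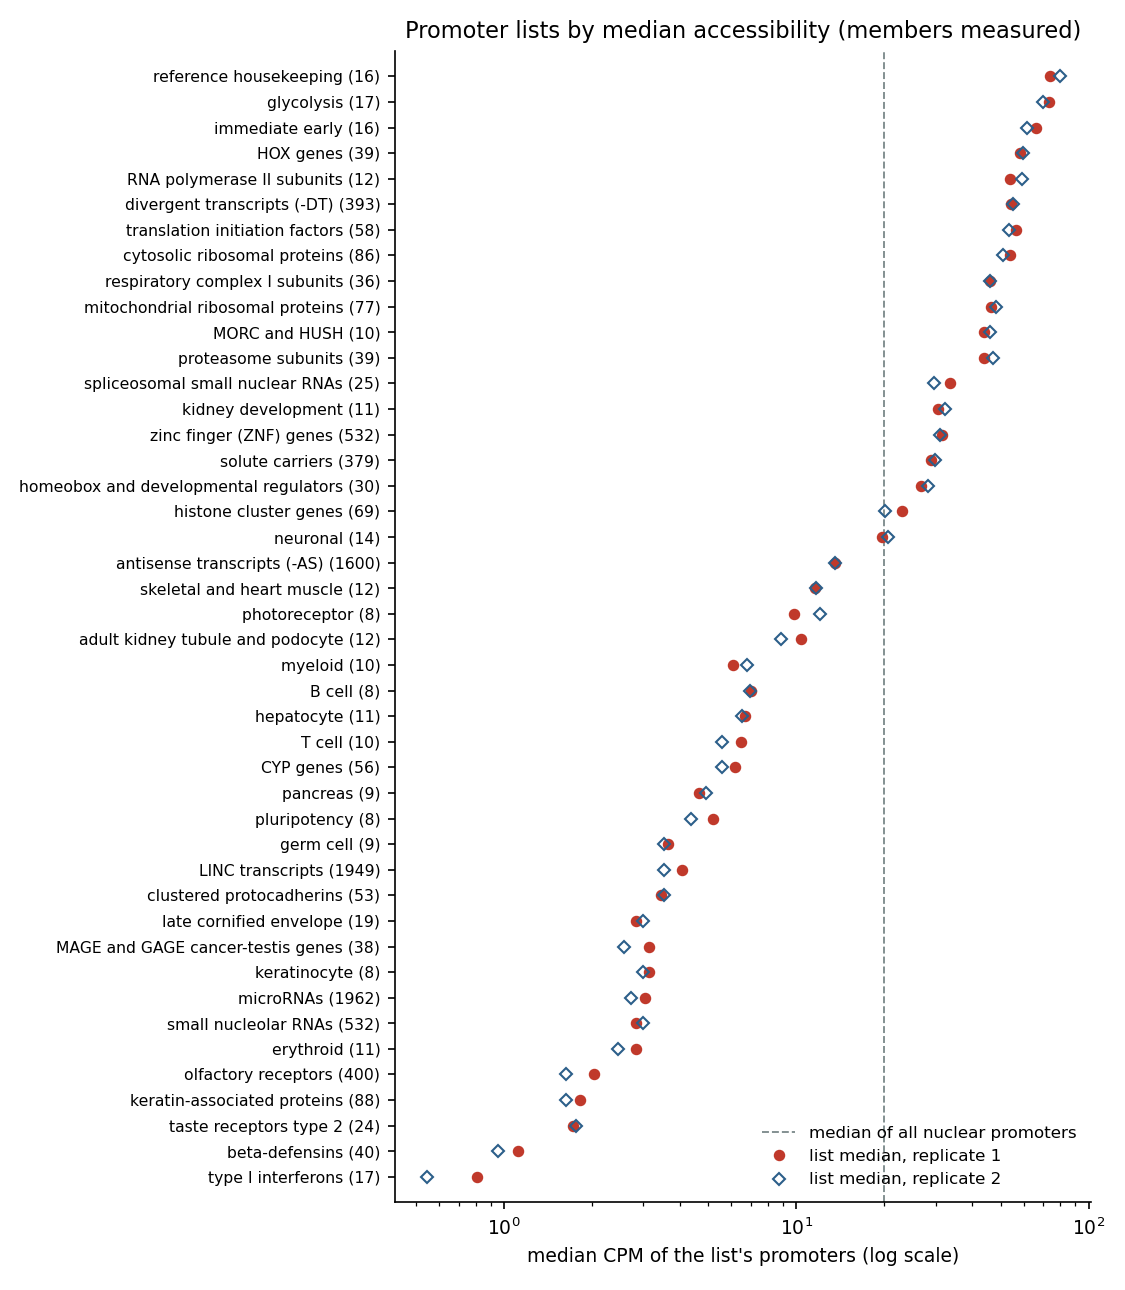
Median CPM of the promoters in each of 44 lists (x axis, log scale) in control replicate 1 (filled circles) and control replicate 2 (open diamonds), with the number of measured members in parentheses and the median of all nuclear promoters as a dashed line. Medians run from 0.812 and 0.544 CPM for type I interferons to 74.0 and 79.7 CPM for reference housekeeping genes.

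Of 16 reference housekeeping genes, 8 were most open, 0 were closed and all 16 lay in the upper mode, with a median of 76.8 CPM. GAPDH, a glycolytic enzyme gene, had 159.1 and 159.5 CPM. ACTB, the gene of cytoplasmic actin, had 113.4 and 114.8 CPM, and TBP, which encodes the TATA-binding protein, had 119.1 and 107.5 CPM.

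Glycolytic genes had a median of 71.3 CPM, with 7 of 17 most open. The isozymes of a reaction differed: ALDOA had 188.6 ± 17.7 CPM and ALDOC, the brain aldolase, had 16.9 ± 1.94 CPM. ENO1 had 117.5 ± 15.7 CPM and ENO2, the neuronal enolase, had 26.6 ± 2.24 CPM. HK2 had 87.9 ± 8.90 CPM, whereas HK1 had 4.17 ± 0.13 CPM in the window that was counted. Lactate dehydrogenases LDHA and LDHB had 122.2 ± 6.45 and 74.1 ± 2.00 CPM.

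Immediate early genes, which are induced within minutes of a stimulus, had a median of 63.3 CPM, with 6 of 16 most open. JUN led with 238.2 and 235.9 CPM, followed by EGR1, a zinc finger factor induced by growth signals, with 197.8 and 208.7 CPM. MYC had 125.6 and 117.0 CPM and DUSP1, a MAP kinase phosphatase gene, had 121.7 and 110.2 CPM. FOS was intermediate at 72.4 and 65.0 CPM, and ATF3 was lowest at 10.1 and 14.7 CPM. No promoter of this list was closed.

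Promoters of the large assemblies of the cell lay mostly in the upper mode, with shares of most open promoters on either side of the 10.0% background. Of 86 cytosolic ribosomal protein promoters, 85 lay in the upper mode and 6 (6.98%) were most open, with a median of 52.5 CPM. RPL7 was highest at 134.9 ± 2.00 CPM, and the only closed member was RPL10L, a testis-expressed retrogene, at 1.76 ± 0.20 CPM. Mitochondrial ribosomal proteins had 76 of 77 promoters in the upper mode, 8 (10.4%) most open and a median of 46.9 CPM, led by MRPL18 at 181.9 ± 3.63 CPM. RNA polymerase II subunits (12 promoters) had a median of 55.9 CPM and 3 (25.0%) most open, and respiratory complex I subunits (36 promoters) a median of 47.8 CPM and 5 (13.9%) most open, led by NDUFA11 at 184.3 ± 0.67 CPM. The list of translation initiation factors (58 promoters) had a median of 54.7 CPM and 10 (17.2%) most open. Its highest member, EIF2AK3 at 150.5 ± 4.22 CPM, encodes a kinase that acts on an initiation factor and is not one itself.

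A few constitutive genes had almost no counts in their windows. NDUFA5, a complex I subunit gene, had 4 and 3 counts. PSMA6, a subunit gene of the proteasome core, had 11 and 10 counts, while the 39 proteasome subunit promoters had a median of 43.4 CPM. EIF3C had 0 counts and its near-identical copy EIF3CL had 0 and 1, and the part of the mapping-quality filter in these counts was not tested. Whether the counted windows of NDUFA5 and PSMA6 lay at the start in use was not tested.

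Promoters of the silencing machinery around MORC2 were mostly intermediate. Of 10 MORC and HUSH genes, 2 were most open and 1 was closed, with a median of 45.7 CPM. MORC3, a nuclear MORC ATPase gene, had 102.1 and 113.7 CPM, and TRIM28, the corepressor recruited by KRAB zinc fingers, had 91.3 and 98.5 CPM. The HUSH complex genes TASOR, MPHOSPH8 and PPHLN1 had 42.2 ± 4.29, 47.3 ± 6.62 and 44.2 ± 5.65 CPM, and the methyltransferase gene SETDB1 had 36.3 ± 2.87 CPM. MORC4 had 55.5 ± 1.21 CPM. MORC1, known from the germline, was closed with 18 and 6 counts.

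Kidney markers covered the range from most open to closed. Of 11 kidney development genes, 3 were most open. SIX2, a factor of nephron progenitors, had 138.2 and 131.4 CPM, and SALL1 had 88.3 and 93.6 CPM. GATA3 had 64.6 ± 5.58 CPM, LHX1 36.2 ± 0.05 CPM and WT1 31.5 ± 1.23 CPM. PAX2 had 10.2 ± 1.35 CPM, EYA1 4.95 ± 0.69 CPM and PAX8 4.75 ± 0.98 CPM. Of 12 genes of the adult tubule and podocyte, 0 were most open and 4 were closed. LRP2, which encodes megalin, had 51.7 and 51.7 CPM and PODXL 51.3 and 49.0 CPM, while UMOD, the uromodulin gene, had 15 and 8 counts and SLC12A1 had 2 and 2 counts.

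Neuronal markers were accessible at a moderate level. All 14 were intermediate and 11 lay in the upper mode, with a median of 20.1 CPM. ELAVL3 had 65.7 and 78.1 CPM, TUBB3 67.2 and 69.9 CPM, MAP2 52.1 and 52.8 CPM, and NEFL 49.5 and 46.8 CPM. RBFOX3, the NeuN gene, had 10.1 and 10.3 CPM. The list was neither richer in most open promoters than the background nor held a closed one.

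Developmental regulators covered the whole range. Of 30 homeobox and developmental genes, 6 were most open and 2 closed, with a median of 27.5 CPM. EN2 had 133.1 and 128.4 CPM, and NKX6-1, GATA6, NKX2-5 and POU4F1 lay between 97.1 and 106.6 CPM. PAX6 had 33.2 ± 0.76 CPM, GATA4 8.38 ± 0.08 CPM and TBXT 8.14 ± 1.18 CPM. SOX1 and TBX5 were closed at 2.75 ± 0.73 and 2.37 ± 0.49 CPM. The pluripotency genes likewise differed, with SOX2 at 44.4 ± 1.91 CPM, POU5F1 at 9.09 ± 0.23 CPM and NANOG at 2.14 ± 0.71 CPM.

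The HOX genes, which pattern the body axis from 4 clusters, had a median of 59.8 CPM, with 33 of 39 promoters in the upper mode, 1 most open and 0 closed. HOXD11 stood out with 147.7 and 129.2 CPM. Within the same cluster HOXD13 had 67.4 ± 5.33 CPM, whereas HOXD10, HOXD9 and HOXD4 had 8.07 ± 0.51, 10.5 ± 0.29 and 5.23 ± 2.23 CPM. In the HOXA cluster, HOXA13 had 79.2 ± 2.68 CPM and HOXA2 12.1 ± 0.96 CPM. HOXC4, HOXC5 and HOXC6 had the same 398 and 324 counts, which is 1 window counted for 3 genes.

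Zinc finger genes of the ZNF symbol group (532 promoters) resembled the background in the share of most open promoters, at 10.7%, with 16.2% closed and a median of 31.2 CPM. ZNF687 was highest at 241.7 ± 20.7 CPM. Solute carriers (379 promoters) were alike at 11.6% and 10.6% with a median of 29.1 CPM. Replication-dependent histone genes split, with 25 of 69 closed and 6 most open, led by H2AC25 at 180.9 ± 10.4 CPM. H4C14 and H4C15, which are near-identical copies, had 0 counts.

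Several families of sensory, skin and defence genes were mostly closed. Of 400 olfactory receptor promoters, 365 (91.3%) were closed and 0 most open, with a median of 1.87 CPM. The middle member OR5B21 had 9 and 7 counts, whereas OR1F1 had 336 and 203 counts and lay in the upper mode. All 17 type I interferon promoters were closed with a median of 0.611 CPM, close to the detection floor. IFNB1, the interferon gene induced by viral infection in most cells, had 8 and 1 counts, and IFNA7 had 2 and 3. Beta-defensins had 34 of 40 closed, bitter taste receptors 17 of 24, keratin-associated proteins 67 of 88 and late cornified envelope genes 18 of 19. Of the 40 beta-defensin promoters, 12 had 0 counts in both libraries, against 545 of all 28738. The part of the mapping-quality filter in the low counts of these families was not tested. Differences between genes within the closed class were not tested, and counts this low leave single values imprecise.

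Lists of blood and liver genes had medians below that of all nuclear promoters, but differed in the share of closed members. That share was 25.0% over all nuclear promoters and 15.3% over protein-coding ones. Of 11 erythroid genes, 8 were closed and 0 lay in the upper mode, and of 11 hepatocyte genes 5 were closed. Of T cell genes 3 of 10 were closed (30.0%, median 6.04 CPM), of B cell genes 2 of 8 (25.0%, 6.61 CPM) and of myeloid genes 2 of 10 (20.0%, 6.92 CPM). In the upper mode lay 3 of the hepatocyte, 2 of the T cell, 2 of the B cell and 0 of the myeloid promoters, against 53.7% of all nuclear promoters. The adult globin gene HBB had 13 and 9 counts, and HBA1 had 58 and 50 counts against 18 and 13 for its near-identical copy HBA2. ALB, the albumin gene, had 5 and 1 counts, while the apolipoprotein gene APOA1 had 40.2 and 40.5 CPM. The T cell gene CD8A had 48.3 and 63.9 CPM, against 10 and 10 counts for CD3E. NRL, a rod photoreceptor factor, was in the most open class, with 114.0 and 110.5 CPM. Clustered protocadherins, whose members are chosen at random in single neurons, had 31 of 53 closed and a median of 3.60 CPM, led by PCDHAC1 at 20.9 ± 1.19 CPM.

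The sequence of the promoters, which was not used to rank them, differed with openness. Of 18593 protein-coding promoters outside chromosomes 8 and Y, 15435 (83.0%) had a sequence in the RefSeq table. The median GC content was 67.0% in the most open, 64.0% in the intermediate and 45.3% in the closed class. The observed over expected CpG ratio was 0.86, 0.79 and 0.24. CpG-rich promoters, those with at least 50% GC and a ratio of at least 0.6, made up 90.4%, 69.0% and 14.2% of the classes. These are values over promoters of 1 pair of libraries, and the bias of Tn5 and of amplification for base composition was not tested.

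**Figure D4:**
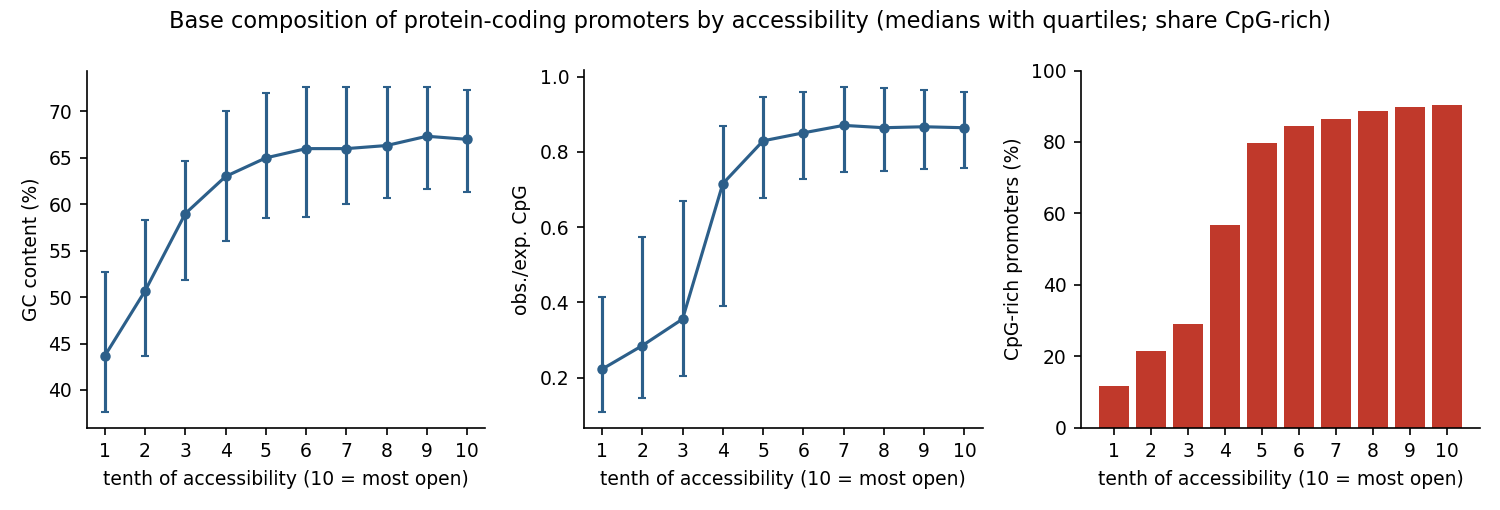
Base composition of 15435 protein-coding promoter sequences in 10 equal groups of rising accessibility (x axis, 10 the most open): GC content in percent and observed over expected CpG, each as median with lower and upper quartile, and the percentage of CpG-rich promoters as bars. The share of CpG-rich promoters climbs from 11.6% to 79.8% over the first 5 groups and reaches 90.5% in the last.

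Levels were then compared between CpG classes. CpG-rich promoters had a median of 53.6 CPM (53.8 and 53.3 in the libraries) and CpG-poor ones 6.34 CPM (6.49 and 6.26). Across all 15435 promoters, GC content and CPM gave a Spearman rho of 0.475. The rho was 0.04 among the 9862 CpG-rich and 0.449 among the 5573 CpG-poor promoters, classes that were themselves cut on GC content. For the CpG ratio and CPM, the rho was 0.56 over all, 0.132 among CpG-rich and 0.406 among CpG-poor promoters. The median GC content was 65.0% in the fifth of 10 equal groups of promoters and 67.0% in the most open of them, although the median CPM was 32.7 and 118.6. Of the CpG-rich promoters 1064 (10.8%) lay in the lower mode. Among ZNF genes 63 of 332 CpG-rich promoters did so, and this share was not tested.

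Exceptions stood at both ends. CpG-poor promoters in the most open class numbered 201, led by TEDC1 (GC 63.0%, ratio 0.38) and SDCCAG8 (GC 62.7%, ratio 0.52), followed by DRC8 at 226.1 ± 4.20, MYL11 at 223.3 ± 10.9 and EOLA1 at 216.8 ± 0.69 CPM. Of these 201, 105 had a ratio of at least 0.5. Some lay near the limit of the ratio, like MYL11 (ratio 0.57), and some, like DRC8 (GC 39.3%, ratio 0.87), counted as CpG-poor by their GC content. Others, such as TEDC1, did neither. CpG-rich promoters with 0 counts included NSF, UBE2L3, F8A1, H4C14 and PPIP5K1, the first 5 by identifier of 35 such promoters. F8A1 and H4C14 have near-identical copies elsewhere in the genome, and fragments with a mapping quality under 30 had been discarded. The part of that filter in the 0 counts of NSF, UBE2L3, PPIP5K1 and the others was not tested.

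Short motifs were searched on both strands of the same 300 bases, as letters only and not as bound sites. The GC box GGGCGG, recognised by SP1 and KLF factors, was found in 80.3% of most open, 63.3% of intermediate and 18.4% of closed promoters, and in 44.5% of all 27305 genes of the table. CCAAT, the box bound by NF-Y, was found in 52.8%, 32.3% and 42.2%, so that intermediate promoters held it least often (35.7% of all genes). The TATAAA box showed the opposite order to the GC box, with 4.49%, 7.23% and 26.6% (12.02% of all genes), and the AP-1 motif TGANTCA likewise with 2.53%, 5.13% and 11.5% (7.72%). CCGGAAG, the ETS site, was found in 18.1%, 15.8% and 3.76% (10.6%).

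The level of promoters with and without each motif was compared within CpG classes. CpG-rich promoters with CCAAT had a median of 63.7 CPM and those without it 49.1 CPM, with 28.7% and 14.0% most open, although those with the box had a lower median GC content (65.3% against 69.0%). The corresponding medians for GGGCGG were 54.8 and 49.6 CPM, and for CCGGAAG 56.8 and 52.9 CPM. The MYC E-box CACGTG gave 53.4 and 53.7 CPM and the cyclic AMP element TGACGTCA 53.1 and 53.7 CPM. TATAAA went with 45.9 against 53.9 CPM. The NRF1 letters TGCGCA gave 55.7 and 53.3 CPM and the YY1 letters ATGGCGG 56.8 and 53.3 CPM. TGACG, which the cyclic AMP element contains, gave 56.2 and 51.9 CPM, and TGANTCA 46.2 and 54.1 CPM. Among CpG-poor promoters, CCAAT went with the lower median (5.46 against 6.73 CPM), opposite to CpG-rich ones. The share most open was nevertheless higher with CCAAT there, 4.74% against 2.89%, as in CpG-rich ones. GGGCGG in CpG-poor promoters went with 14.4 against 5.02 CPM, CCGGAAG with 25.4 against 6.10 CPM and ATGGCGG with 29.8 against 6.21 CPM. TATAAA went with 3.46 against 7.56 CPM. Their median GC content moved the same way, at 59.7% against 48.0% for GGGCGG and 55.3% against 50.0% for CCGGAAG. It was 54.2% against 50.3% for ATGGCGG and 43.3% against 52.3% for TATAAA. The part of GC content in these differences was not tested.

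Promoters with a listed close neighbour were more open. Starts came from the RefSeq promoter table, which held 19554 of the 28738 nuclear promoters (68.0%). A start outside that table could not count as a neighbour, so a promoter without a listed neighbour may still have one. Of promoters with a divergent start within 1 kb (3417), 24.1% were most open and the median was 60.8 CPM. The values were 8.57% and 18.8 CPM for 14429 lone promoters, those with no other listed start within 1 kb. Among long noncoding RNA genes the medians were 52.2 and 4.98 CPM. The same order held within CpG-rich protein-coding promoters, with 64.6 CPM for divergent and 48.7 CPM for lone starts. The windows of such pairs overlap, so each neighbour also counted fragments of the other. The 393 transcripts named as divergent (-DT) had a median of 55.1 CPM with 23.4% most open, those named LINC 3.80 CPM with 1.18%, and those named antisense (-AS) 14.0 CPM with 9.88%. The -AS median was 25.3 CPM when 1 promoter was kept of those with the same counts on a chromosome.

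Openness also varied along the chromosomes. The share of most open promoters ran from 3.66% on chromosome 20 and 4.59% on chromosome 18 to 14.0% on chromosome 10 and 15.8% on chromosome 1. To set aside closed genes, the promoters of the upper mode were divided in gene order into 288 blocks of 50, after neighbours with the same counts were reduced to 1. The block medians had a median of 53.9 CPM and quartiles of 47.4 and 60.8 CPM. The 2 most open blocks adjoined each other on chromosome 1. The block from SLC35F3 to SMYD3 had a median of 113 CPM (111 in each library) with 30 of 50 promoters most open, and the block from PSEN2 to KCNK1 had 105 CPM (108 and 102) with 32 of 50. The block before them, from LYPLAL1-DT to ITPKB, had 86.6 CPM. These 2 blocks held 10 of the 40 most open promoters, among them CEP170, SDCCAG8, ARID4B, IBA57 and GUK1.

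**Figure D5:**
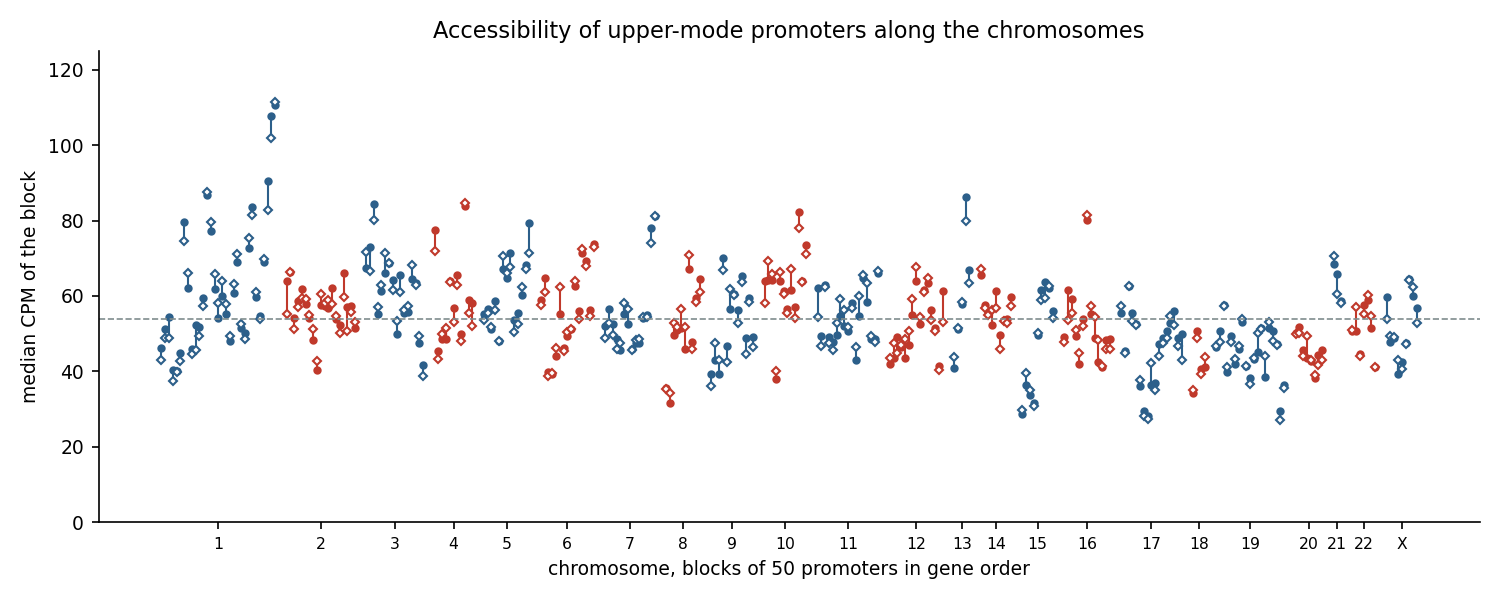
Median CPM of blocks of 50 consecutive upper-mode promoters (y axis) in gene order along each chromosome (x axis), with control replicate 1 as filled circles and control replicate 2 as open diamonds joined by a line, colours alternating by chromosome, and the median of all blocks dashed. The last 2 blocks of chromosome 1 lie above 100 CPM in both libraries, and blocks on chromosomes 15, 17 and 19 lie near 30 CPM.

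Other blocks of high openness ran from MYSM1 to NEGR1 on chromosome 1 (91.2 CPM), from CCNA2 to SMARCA5 on chromosome 4 (85.3 CPM), from UBE2E1 to OXSR1 on chromosome 3 (84.0 CPM) and from NEK5 to MIR19A on chromosome 13 (81.0 CPM). The least open ran from LOC105371763 to KLHL11 on chromosome 17 (26.6 CPM), from LINC01530 to KMT5C on chromosome 19 (27.7 CPM) and from LOC283683 to CCDC9B on chromosome 15 (29.3 CPM). The highest block median was 4.27 times the lowest. The medians of the blocks agreed between libraries with a Pearson r of 0.966, and the largest difference of a block between the libraries was 15.9%. Neighbouring genes share a locus, and differences in copy number of that locus were not tested.

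The peak list of the control cells, called on the T2T-CHM13 assembly with 1 list for the group, held 59791 nuclear peaks and 6 mitochondrial ones. The nuclear peaks covered 37.6 Mb, with a median width of 483 bp and quartiles of 309 and 827 bp. With a −log10 q of at least 10, 33038 peaks remained and their median width was 730 bp. The median fold enrichment at the summit was 5.72, and wider peaks had the higher folds (Spearman rho of 0.603 across peaks). When peaks were divided by fold into 4 equal groups, the median width was 871 bp in the strongest and 302 bp in the weakest. There were 3.87 nuclear peaks for each promoter of the upper mode. The peak of highest fold, 43.5, lay at chr11:10594380-10594812 of T2T-CHM13, and the widest, of 3801 bp, at chr4:20234171-20237971 with a fold of 5.91. The list has no replicates, so no error can be given.

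The number of peaks per promoter differed between chromosomes. Chromosome 13 had 332 peaks for each 100 promoters and chromosome 10 had 312, against 132 on chromosome 19. The median fold was lowest on chromosome 13 (4.63) and highest on chromosome 19 (6.43). Across 23 chromosomes, the median CPM of upper-mode promoters and the median peak fold gave a Spearman rho of -0.53, and the same medians and the number of peaks for each 100 promoters a rho of 0.51, a description only. In the 10 Mb bins of T2T-CHM13, the 3 that held the most peaks were the stretch from 140 Mb of chromosome 9, with 608 peaks of median fold 4.98, that from 0 to 10 Mb of chromosome 19, with 606 of median fold 5.31, and that from 10 to 20 Mb of chromosome 19, with 550 of median fold 6.29.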

How the data were processed

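Per the labels, nuclei were transposed by the Omni-ATAC method and sequenced as read pairs. According to the study's methods, reads were trimmed with Trim Galore, aligned to T2T-CHM13 with Bowtie2, filtered for proper pairs with a mapping quality of at least 30 and freed of duplicates with Picard; peaks were called with MACS2. The authors deposited raw fragment counts per promoter, with a fragment assigned by its midpoint to a 2 kb window, and a peak list with a fold ratio and a −log10 q-value for each peak; how the libraries were pooled for it is not given in the sources used here. Samples were grouped by label. The promoter lists and tests were chosen with earlier results of these data known.

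CPM were computed over nuclear counts (4928862 and 3675088, 37 mitochondrial promoters left out). The test between libraries was a two-sided exact binomial test (scipy 1.17.1) with Benjamini-Hochberg adjustment over promoters with at least 10 counts. On simulated data with counting error only, it recovered 98.0% of 200 promoters whose expected counts were doubled in replicate 1. All 200 were picked from those with higher counts. Smaller changes, changes in promoters of low counts, and spread beyond counting error were not simulated. edgeR 4.0.16 gave the coefficient of variation and TMM factors, and DESeq2 1.42.0 size factors. Gene types, order and promoter sequences came from RefSeq (GRCh38.p14), matched by Entrez identifier, 28726 of 28738 with a symbol. Named were the 10 highest, the 5 middle and the 5 lowest protein-coding promoters above 0, the highest, middle and lowest or all members of a list, the 5 largest ratios between libraries, the extremes by CpG class, and MORC2; other named promoters, such as INSIG1, NDUFA5, HOXD11 or OR1F1, were chosen after their values were seen. Of 46 lists, 44 had at least 3 measured members. Y-linked genes, a few list members and sequences on chromosome 8 are not reported here. Alternatives covered scaling, filters, pseudocount, class limits, shared windows and leaving out a library.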

Additional observations from a re-analysis of the deposited data

How the results depend on the processing

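No paired analysis was possible because the libraries belong to a single group. The binomial test called 1 promoter with the other settings but 15 with TMM; the cause was not tested. The SD of log2 ratios was 0.175 for mean counts from 50, 0.3 for mean counts from 10 and 0.369 without a filter, where low counts enter. The most open class held 34.4% of counts (34.3% to 34.7% leaving out a library), 20.3% when it was limited to the highest twentieth, and 31.4% when 1 promoter was kept of those with the same counts on a chromosome; its lowest CPM was then 110.0 and 92.4, and the highest CPM of the closed class 1.66 and 6.03 in place of 3.80. Dividing by all counts with mitochondrial promoters gave 40.6 and 1.77 CPM for these limits. Leaving out a library, the limits ranged from 87.6 to 88.2 and from 3.54 to 4.06 CPM. The low point between the modes would put 46.3% of promoters in the closed class. Keeping 1 promoter of those with the same counts on a chromosome also merges unrelated low counts. It moved 18 of 44 list medians by more than the spread between libraries, those of microRNAs from 2.88 to 4.99, of small nucleolar RNAs from 2.85 to 5.97, of antisense transcripts from 14.0 to 25.3 and of pluripotency genes from 4.63 to 7.24 CPM. With only neighbours in gene order merged, chosen after seeing the data, the class shares and limits stayed within the spread between libraries and 7 list medians moved. Leaving out promoters at 0 moved the beta-defensin median from 1.08 to 1.91 CPM. Lists above the median numbered 19, 18 without either library and 16 to 19 over the other alternatives. CpG-rich promoters were 76.2 percentage points commoner in the most open than in the closed class (75.3 to 76.2 leaving out a library). In genes with 1 promoter in the reference table, an alternative added after seeing the data, the difference was 79.8 points and the median CPM 52.9 for CpG-rich and 5.15 for CpG-poor promoters. The CpG-poor median was 6.58 CPM without promoters at 0. On chromosome 1 the most open share was 15.5% with either library alone and 18.8% for protein-coding genes, and the ratio of divergent to lone promoters was 3.24, or 2.2 for protein-coding genes. Blocks moved by 25 promoters, also added later, had extremes of 108.0 and 27.7 CPM. A −log10 q of at least 10 left 33038 peaks of median width 730 bp, and one of at least 5 left 44298 of 605 bp. The sequence analysis used protein-coding genes throughout, so that alternative changed nothing. Depth limits the closed class, where the 3-count floor lies at 0.609 and 0.816 CPM.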
